A study of Mus musculus with 4 samples.

Results

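Imprinted genes are transcribed mainly from the allele of a single parent, set by DNA methylation laid down in the germ line. Many sit in clusters in which long noncoding RNAs are made from the opposite allele to that of the protein-coding genes. The products of several restrain growth or cell proliferation, and many are most active in the developing brain and placenta. The 10 genes described here are the noncoding RNAs Meg3, Rian and Mirg of the Dlk1-Dio3 cluster, Ndn and Magel2 of the region that corresponds to the human Prader-Willi locus, and Peg3, Impact, Zrsr1, Grb10 and Plagl1. They were taken by symbol from 35869 gene rows, and all 10 had a row. The values do not separate the parental alleles, so they are total transcript levels and say nothing of whether imprinting was kept.

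RNA was sequenced from oligodendrocytes, the myelin-forming glia, sorted from mouse cortex at postnatal day 5 as cells double-positive for O4 and GalC. The wild-type group (WT) and the group homozygous for a Zfp488 knock-in allele, called Zfp488 KO in the labels, have 2 libraries each. The sources used here do not say how the allele was built, which strain was used or how many animals stand behind a library. The p-values therefore compare these 4 libraries only, and their spread may be technical. Levels are in FPKM, which scales fragments by the length of the transcript and by all fragments mapped in the library. Zfp488 read 6.61 and 5.29 FPKM in the WT libraries, against 4.82 and 4.11 FPKM in the KO libraries.

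The libraries summed to between 311846 and 341145 FPKM, and low values stepped by about 1 read, so that 1 FPKM on a transcript of 1 kb stood for about 37.4 (WT 1) to 43.8 reads (WT 2). Defining markers of the lineage were present in every library, and the 9 on the list summed to between 2427 (KO 2) and 2757 FPKM (KO 1). The libraries numbered 2 in the labels stood apart in both genotypes by markers of other cells. The 6 endothelial markers summed to 0.005 and 0.038 FPKM in WT 1 and KO 1, with 4 of them at 0 in each, and to 28.6 FPKM in both WT 2 and KO 2. Cldn5 alone gave 26.8 and 26.3 FPKM of the last 2 sums, whereas Pecam1 reached at most 0.002 FPKM, Flt1 was at 1.20 FPKM in WT 2 and at 0 in KO 2, and Kdr was at 1.95 FPKM in KO 2 and at 0 in WT 2. The 7 pericyte and fibroblast markers summed to 0.449 and 3.55 FPKM in the libraries numbered 1 and to 21.1 and 20.7 FPKM in those numbered 2. The 7 astrocyte markers went from 91.5 to 170.4 FPKM in WT and from 116.5 to 258.0 FPKM in KO, and the 16 neuronal markers, of which 8 to 10 were at 1 FPKM or more in a library, from 186.8 to 302.9 and from 243.2 to 362.2 FPKM. The largest share of the neuronal sums was that of Gap43, at 128.5 to 263.4 FPKM. Microglial markers, 6 in number, went from 9.77 to 26.5 and from 14.5 to 19.4 FPKM. Between genotypes, the precursor markers Pdgfra and Cspg4 together summed to 43.7 and 54.6 FPKM in the WT libraries, against 82.3 and 75.5 FPKM in the KO libraries.

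None of the 10 imprinted genes passed the test between genotypes, in a data set in which no gene did by limma. Of 10754 rows with at least 1 FPKM in at least 2 libraries, 0 had an adjusted p under 0.05 (limma, 0% of tested rows), while 608 (302 higher in KO, 306 lower) reached an unadjusted p under 0.05. With each library rescaled to a common sum that split was 383 higher and 181 lower. Of the 10 genes, 7 were tested and 0 passed, and 0 had an unadjusted p under 0.05. Levels ran from Ndn, at about 290.7 FPKM and rank 180 among all rows, through Meg3 at 3.17 FPKM, to 7 genes with means between 0.305 and 0.999 FPKM and Mirg, which was listed at 0 throughout. Below Meg3 the order of Impact, Zrsr1, Rian, Plagl1, Peg3, Grb10 and Magel2 cannot be told apart, because their ranges over the libraries overlap.

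**Figure D1:**
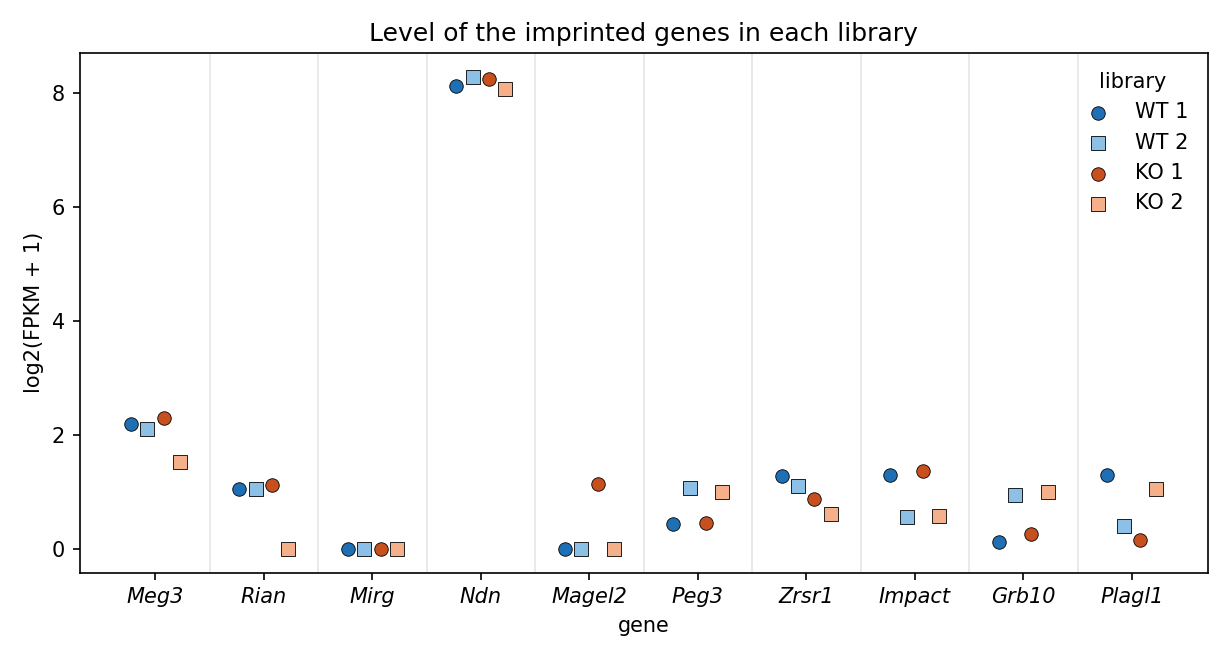
Level of each of the 10 genes in each library as log2(FPKM + 1), with circles for libraries numbered 1, squares for those numbered 2, blue for WT and orange for KO. Ndn stands near 8 in all 4 libraries, Mirg lies at 0, and Peg3, Grb10 and Impact separate by library number and not by genotype.

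The noncoding RNAs of the Dlk1-Dio3 cluster come from the maternal chromosome and are read in the same direction. They carry one of the densest groups of small RNAs in the genome, and the mature sequences of the microRNA rows that had a signal are shown because the host and the small RNA share letters of the same transcript. In the following lines, from RefSeq on GRCm38.p6 and written 5′ to 3′, capitals mark the seed, bases 2 to 8, which pairs with targets.
mmu-miR-1906: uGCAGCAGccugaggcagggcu
mmu-miR-369-5p: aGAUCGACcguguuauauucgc
mmu-miR-369-3p: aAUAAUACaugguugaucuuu
mmu-miR-770-5p: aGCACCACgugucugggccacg
mmu-miR-770-3p: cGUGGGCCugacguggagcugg
No seed is shared among these 5. The mature miR-1906 sequence stands at chr12:109544588-109544609 on the plus strand, inside Meg3, and a second time at chrX:88759485-88759506 on the minus strand, as Mir1906-2.

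Meg3 (RefSeq gene 17263, chr12:109540996-109571729, plus strand), a long noncoding RNA that slows growth in many cell types, read 3.55 and 3.33 FPKM in the WT libraries, against 3.92 and 1.88 FPKM in the KO libraries. KO 1 was the highest library and KO 2 the lowest, so the KO group spanned the WT group. The log2 difference of KO minus WT, here and below on the scale of log2(FPKM + 1), was -0.24 (SE 0.41; limma, adjusted p = 0.985), and without KO replicate 2 it was 0.15. The 3 tested rows nearest to Meg3 across the 4 libraries, by Euclidean distance after centring each row on its mean, were Nr1h2 (distance 0.056), Tom1 (0.066) and Ndufaf5 (0.092). Nr1h2, a nuclear receptor for oxysterols, read 11.7 and 11.5 FPKM in the WT libraries, against 12.6 and 7.34 FPKM in the KO libraries. With 4 libraries such likeness rests mainly on the low value of KO 2.

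Rian (gene 75745, chr12:109603945-109661716), the host of a series of C/D box small nucleolar RNAs, read 1.07 and 1.08 FPKM in the WT libraries, 1.18 FPKM in KO 1, and was listed at 0 in KO 2. The first 3 libraries lay close together at an estimated 323 to 382 reads each, so the genotype difference of -0.49 (SE 0.51; limma, adjusted p = 0.957) came from a single library. Without KO replicate 2 it was 0.073. A 0 in these values can be a failed estimate, and that possibility was not tested for Rian.

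Mirg (gene 100040724, chr12:109734981-109749458), named for the microRNAs it contains, was listed at 0 in all 4 libraries and was not tested. From the start of Meg3 to the end of Mirg the table held 60 microRNA rows, of which 57 were at 0 in every library, and 7 small nucleolar RNA rows, of which 5 were at 0 in every library. Libraries that are not made for small RNAs count precursors and host transcripts and seldom catch mature microRNAs. A row at 0 therefore does not show that the mature RNA was absent.

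Mir1906-1 was the exception in size and read 99.9 and 84.1 FPKM in the WT libraries, against 109.8 and 64.4 FPKM in the KO libraries. Its order over the libraries, KO 1, WT 1, WT 2, KO 2 from high to low, was that of Meg3, and its genotype difference was -0.12 (SE 0.30; limma, adjusted p = 0.993), turning to 0.0007 without WT replicate 1 and to 0.26 without KO replicate 2. All 80 bases of its locus (chr12:109544541-109544620) lie within exons of Meg3, in 5 of the 11 Meg3 transcripts of GENCODE M21, on the same strand. Reads of Meg3 can therefore be assigned to this row, and the high FPKM is a value per kilobase on an 80-base feature. The X-linked copy Mir1906-2, looked up after the values of Mir1906-1 were seen, was at 3.69, 4.56, 2.82 and 1.59 FPKM in WT 1, WT 2, KO 1 and KO 2.

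The remaining small RNA rows were near the limit of what a few reads give. Mir369, inside the Mirg locus with 1 of its 79 bases in a Mirg exon, read 1.36 and 2.02 FPKM in the WT libraries, against 2.22 and 1.94 FPKM in the KO libraries, an estimated 4 to 7 reads a library. It thus had signal in all 4 libraries while the Mirg row was at 0. Mir770, whose 94 bases lie in Meg3 exon sequence, was at 2.91 FPKM in WT 2 and listed at 0 in the other libraries. AF357359, a small nucleolar RNA row of 30 bases inside Rian exon sequence, was at 2.68 and 1.52 FPKM in WT and listed at 0 in both KO libraries. It passed the filter through the WT libraries alone, and on 30 bases a few FPKM rest on very few reads, so no test is given for it.

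**Figure D2:**
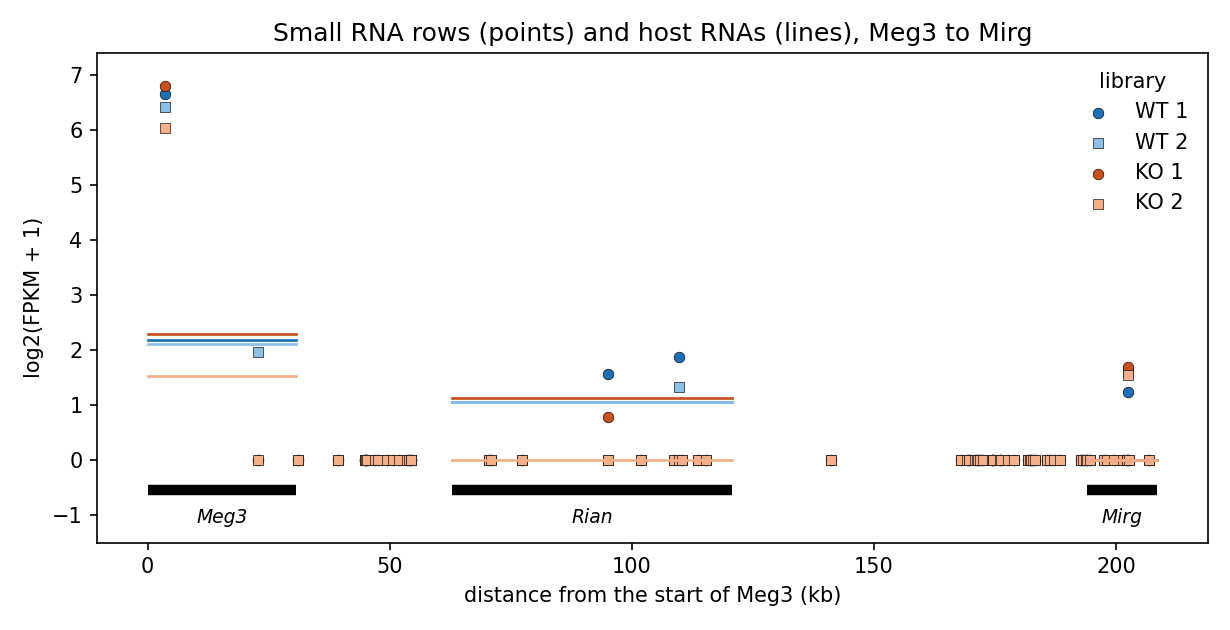
Small RNA rows from Meg3 to Mirg by distance from the Meg3 start (x axis, kb) against log2(FPKM + 1), 1 point a library, with black bars for the spans of Meg3, Rian and Mirg and coloured lines at the level of each host RNA. Mir1906-1, near the Meg3 start, lies above 6 in all libraries, and 62 of the 67 rows lie at 0 in every library.

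The protein-coding genes Dlk1, Rtl1 and Dio3 of the same cluster, which are made from the paternal chromosome, were at or near 0. Dlk1, a Notch-like membrane protein, reached at most 0.046 FPKM, Rtl1, a retrotransposon-derived gene antisense to several of these microRNAs, at most 0.015 FPKM, and the deiodinase gene Dio3 at most 0.014 FPKM. Begain, a protein-coding gene next to the cluster, read 0.207 and 0.297 FPKM in the WT libraries, against 0.039 and 0.314 FPKM in the KO libraries, below the levels of Meg3 in every library.

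Ndn (gene 17984, chr7:62348277-62349928, plus strand, 1 exon) encodes necdin, a MAGE-family protein that holds back cell division and is abundant in neurons. It read 278.5 and 311.8 FPKM in the WT libraries, against 304.0 and 268.4 FPKM in the KO libraries. The highest library was WT 2 and the lowest KO 2, and the groups overlapped. The difference was -0.045 (SE 0.13; limma, adjusted p = 0.994), the smallest SE of the 7 tested genes. Its sign depended on the scaling: the difference was 0.055 with libraries rescaled to a common sum and 0.13 after quantile normalization. Neuronal markers were present beside it. Syp read 28.7 and 13.9 FPKM in the WT libraries, against 38.0 and 33.6 FPKM in the KO libraries, Tubb3 was between 9.55 and 24.6, Nefl between 6.82 and 12.9 and Snap25 between 3.46 and 6.84 FPKM, while Rbfox3 and Slc17a6 reached at most 0.084 and 0.002 FPKM. The part of neuronal RNA in the level of Ndn was not tested.

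Magel2 (gene 27385, chr7:62376979-62381640, 1 exon), a MAGE-family partner of a ubiquitin ligase that acts in endosomal recycling, lies downstream of Ndn. It was listed at 0 in both WT libraries, at 1.21 FPKM in KO 1 and at 0.005 FPKM in KO 2. This is an estimated 225 reads in KO 1 and 1 read in KO 2, so nearly all of its reads lay in a single library. It was not tested, since only KO 1 reached 1 FPKM.

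Of 8 tested genes that neighbour the 10 in their clusters, 0 passed. Both KO libraries lay above both WT libraries for 2 of the 8 and below for 2, orders that 16.6% and 18.3% of all tested rows had, and the median difference was -0.10. Of the 8, Peg12 passed the filter through the KO libraries alone. Snrpn and Snurf, a splicing protein gene and the short reading frame upstream of it on shared transcripts, were at 64.92 and 59.0 and at 198.4 and 180.1 FPKM in WT. In KO they were at 64.97 and 49.1 and at 198.2 and 149.8 FPKM (differences -0.13, SE 0.22, and -0.13, SE 0.19). Mkrn3, a ubiquitin ligase gene that delays puberty, read 0.021 and 3.45 FPKM in the WT libraries, against 4.34 and 11.2 FPKM in the KO libraries. Both KO libraries of Mkrn3 lay above both WT libraries, with a difference of 1.92 (SE 0.84; limma, adjusted p = 0.895) that did not pass. Ddc, the aromatic amino acid decarboxylase gene next to Grb10, had the reverse order, with 6.17 and 3.42 FPKM against 3.05 and 0.878 FPKM (-1.03, SE 0.53; limma, adjusted p = 0.914). Ube3a, the maternally expressed ubiquitin ligase of Angelman syndrome, read 2.80 and 1.89 FPKM in the WT libraries, against 3.01 and 1.78 FPKM in the KO libraries.

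Zrsr1 (gene 22183, chr11:22972005-22976496, plus strand, 1 exon), an intronless gene related to the small subunit of the splicing factor U2AF, read 1.42 and 1.16 FPKM in the WT libraries, against 0.830 and 0.522 FPKM in the KO libraries. Both WT libraries and neither KO library reached 1 FPKM, so Zrsr1 entered the test through the group in which it was higher, and its order and the values that follow are a description. Each KO library read less than each WT library, as in 18.3% of all tested rows, and 0 of the 7 tested genes had the opposite order, against 16.6% of all tested rows. The difference was -0.45 (SE 0.37; limma, adjusted p = 0.939) and did not pass. It stayed below 0 in all 11 alternatives that could be run, between -0.86 and -0.15. With both KO values below both WT values, only rescaling to a common sum and quantile normalization could have turned its sign. These gave -0.63 and -0.54. The 4 libraries rested on an estimated 91 to 238 reads each. Zrsr1 lies within Commd1, which is read from the minus strand, and 412 of its 4492 bases coincide with Commd1 exon sequence. Commd1, a regulator of copper handling and endosomal sorting, read 28.0 and 29.6 FPKM in the WT libraries, against 22.4 and 22.9 FPKM in the KO libraries (difference -0.33, SE 0.22; limma, adjusted p = 0.928), the same order of groups. As the strand setting is not given, reads of the 2 genes in their shared bases cannot be told apart. Zrsr2, the related X-linked gene, read 2.57 and 3.25 FPKM in the WT libraries, against 2.27 and 3.25 FPKM in the KO libraries.

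**Figure D3:**
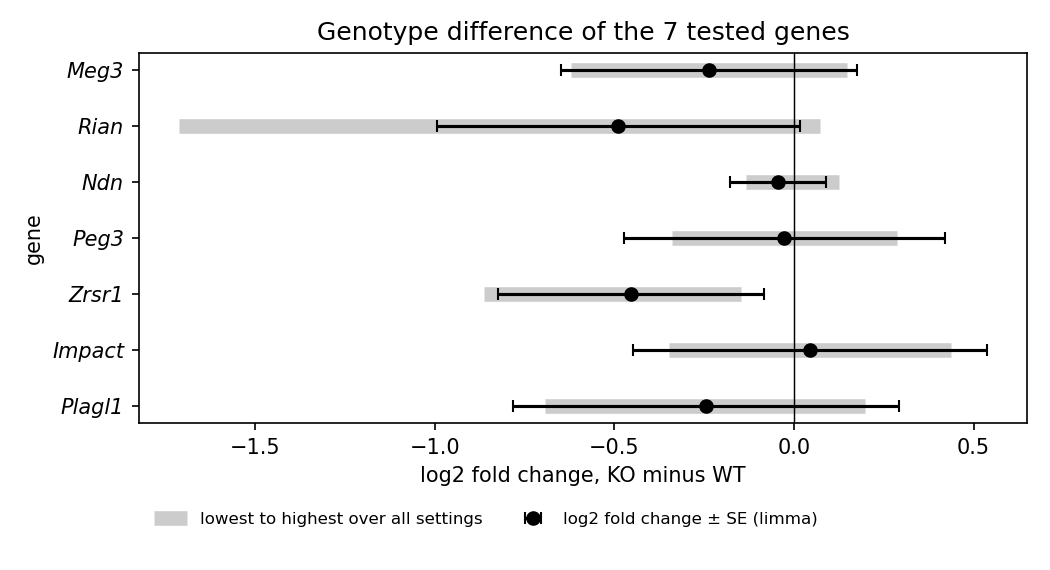
Log2 fold change of KO minus WT (x axis) for the 7 tested genes, with points and bars for the limma estimate ± SE and grey bands for the lowest to highest value over all settings. The bands of 6 genes cross 0, that of Zrsr1, which passed the filter through the WT libraries alone, does not, and 0 of the 7 genes passed the test.

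Peg3, Grb10 and Impact differed more between the libraries of a genotype than between the means of the genotypes. Peg3 (gene 18616, chr7:6703892-6730462, minus strand), a paternally expressed zinc finger gene that marks several stem and progenitor cells, read 0.360 and 0.375 FPKM in the libraries WT 1 and KO 1. In WT 2 and KO 2 it was at 1.10 and 1.003 FPKM, about 131 reads at most in the libraries numbered 1 and at least 338 in those numbered 2. The step from number 1 to number 2 was 0.63 in WT and 0.54 in KO, whereas the genotype difference was -0.027 (SE 0.45; limma, adjusted p = 0.998). Within the libraries numbered 1 KO minus WT was 0.016, and within those numbered 2 it was -0.070.

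The antisense row Peg3os had the same order of libraries as Peg3, with 3.07 and 12.6 FPKM in the WT libraries, against 3.76 and 9.40 FPKM in the KO libraries. All 865 of its bases lie within Peg3 exon sequence, so without the strand setting its reads and those of Peg3 cannot be told apart. Usp29, which starts next to Peg3 in the opposite direction, reached at most 0.059 FPKM.

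Grb10 (gene 14783, chr11:11930499-12037428, minus strand) encodes an adaptor that binds the insulin and IGF receptors and dampens their signal. It is expressed from the maternal allele in most tissues and from the paternal allele in neurons. It read 0.094 and 0.199 FPKM in the libraries WT 1 and KO 1, and 0.927 and 0.992 FPKM in WT 2 and KO 2. Both libraries numbered 2 were thus above both numbered 1, by 0.82 in WT and 0.73 in KO. No library reached 1 FPKM, so it was not tested, and KO minus WT was 0.090 over the groups.

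Impact (gene 16210, chr18:12954690-12992950, plus strand), which competes for Gcn1 and so limits activation of the stress kinase Gcn2, had the reverse order. It read 1.45 and 1.57 FPKM in the libraries WT 1 and KO 1, and 0.476 and 0.495 FPKM in WT 2 and KO 2. The step from number 1 to number 2 was -0.73 in WT and -0.78 in KO, and the genotype difference was 0.045 (SE 0.49; limma, adjusted p = 0.995). Eif2ak4, which encodes Gcn2, was between 0.123 and 0.574 FPKM and had no such order.

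Among the 7 tested genes, both libraries numbered 2 lay above both numbered 1 for 1 (Peg3), an order that 22.3% of tested rows had, and below for 2 (Meg3 and Impact), against 17.2%. Many rows outside this group thus had these orders too, and Peg3 passed the filter through the libraries numbered 2 alone and Impact through those numbered 1 alone. Beside the Peg3 and Grb10 values stand the vascular, astrocyte, microglial and neuronal marker sums given above, which were also higher in the libraries numbered 2. The endothelial sum rose mainly by Cldn5 and the neuronal sum mainly by Gap43. Of the 9 oligodendrocyte lineage markers, 3 (Sox10, Cnp and Ugt8a) had both libraries numbered 2 below both numbered 1, against 17.2% of tested rows. The part of any of these cells in the result was not tested. In bulk samples fewer cells of a type and less RNA per cell cannot be told apart.

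**Figure D4:**
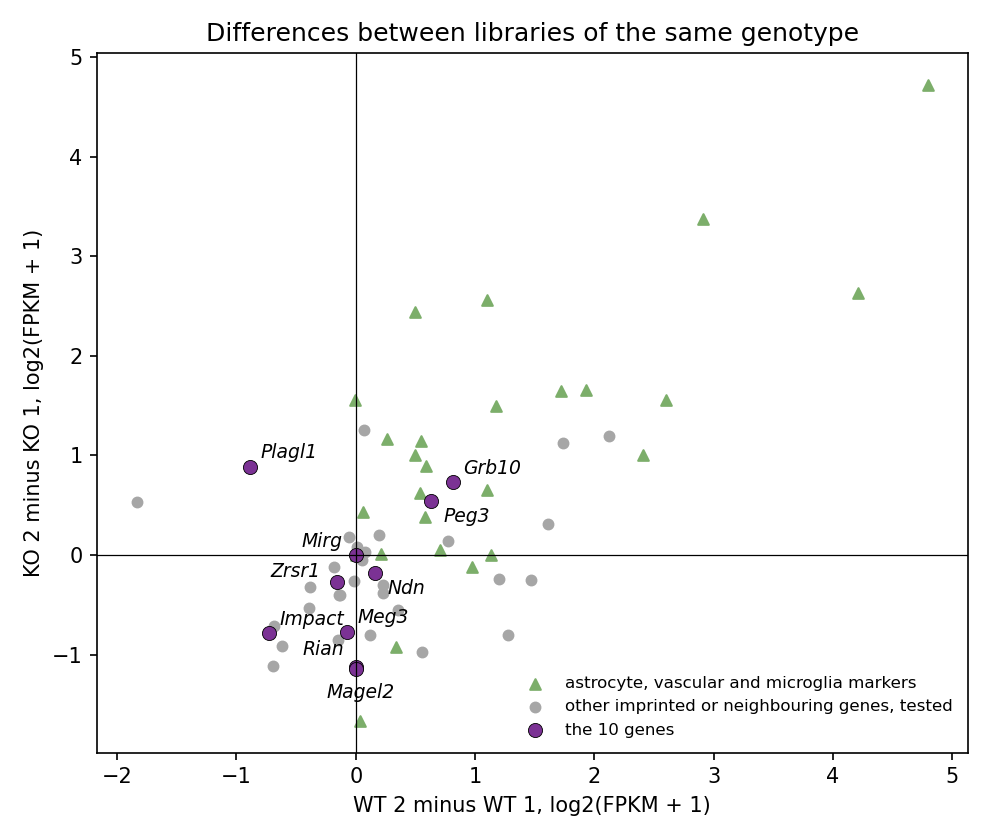
Difference between the libraries numbered 2 and 1 on the log2(FPKM + 1) scale, in WT (x axis) and in KO (y axis), for the 10 genes (purple), other imprinted or neighbouring genes that were tested (grey) and markers of astrocytes, vascular cells and microglia (green). Peg3 and Grb10 lie in the upper right with most of the markers, Impact in the lower left, and Plagl1 in the upper left. Neuronal and oligodendrocyte lineage markers are not shown.

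Plagl1 (gene 22634, chr10:13090832-13131694, plus strand), a zinc finger transcription factor that can halt the cell cycle and is placed upstream of other imprinted genes, followed neither genotype nor number. It read 1.44 and 0.321 FPKM in the WT libraries, against 0.114 and 1.06 FPKM in the KO libraries, an estimated 24 to 284 reads. The 2 libraries of a genotype differed by -0.89 in WT and 0.89 in KO. The genotype difference was -0.25 (SE 0.54; limma, adjusted p = 0.993), the largest SE of the 7, and it was 0.20 both without WT replicate 1 and without KO replicate 1.

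Across the 7 tested genes the median genotype difference was -0.24 and the range -0.49 to 0.045, beside a median of 0.0001 over all tested rows. The median was the value of Meg3 and the lowest that of Rian. Both rested on KO 2, and without KO replicate 2 they were 0.15 and 0.073. The 7 also include Zrsr1, which passed the filter through the WT libraries alone. Further imprinted genes from lists of genes known to be expressed from a single parent in at least some tissues were also read. Of 9 other paternally expressed genes tested, 0 passed. Both KO libraries were above both WT libraries for 4 of the 9 (16.6% of all tested rows) and below for 1 (18.3%), and the median was 0.22. Nap1l5, a nucleosome assembly protein gene of the brain, read 206.8 and 213.9 FPKM in the WT libraries, against 245.9 and 237.2 FPKM in the KO libraries (difference 0.20, SE 0.12; limma, adjusted p = 0.918). Nnat, a small membrane protein gene, was at 103.8 and 119.1 FPKM and at 105.9 and 121.7 FPKM, following library number. The noncoding RNA Peg13 read 5.35 and 13.6 FPKM in the WT libraries, against 20.2 and 17.0 FPKM in the KO libraries (1.02, SE 0.47; limma, adjusted p = 0.902). Mcts2, a retrogene inside H13, went the other way (-0.79, SE 0.41), and its reads may be shared with those of its parent gene.

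Of 12 other maternally expressed genes tested, 0 passed. Both KO libraries were above both WT libraries for 0 of the 12 (16.6% of all tested rows) and below for 1 (18.3%), and the median was 0.040. Cdkn1c, which encodes the cell cycle inhibitor p57, read 15.8 and 9.93 FPKM in the WT libraries, against 10.1 and 4.88 FPKM in the KO libraries (-0.75, SE 0.45; limma, adjusted p = 0.915), so that the groups overlapped narrowly. Casd1, a sialic acid acetyltransferase gene, had the largest difference on the list (1.02, SE 0.70), with WT 2 at 0.173 FPKM and the other libraries between 2.74 and 4.42 FPKM. Cd81, a tetraspanin gene imprinted in placenta, was the most abundant on it, between 638.2 and 750.3 FPKM. Blcap, a small membrane protein gene that overlaps Nnat, followed at 23.9 to 43.8 FPKM (0.079, SE 0.34).

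Of 23 genes for factors that set, read or keep the methylation of imprinted loci, 13 were tested and 0 passed, and Dnmt3l and Dppa3 were listed at 0 in every library. Both KO libraries lay above both WT libraries for 4 of the 13 (16.6% of all tested rows) and below for 2 (18.3%), and the median was -0.081. Uhrf1, among the 4, passed the filter through the KO libraries alone. Zfp57, the zinc finger protein that binds methylated imprinting control regions, was between 0.657 and 0.895 FPKM and was not tested, while its partner Trim28 read 72.5 and 76.2 FPKM in the WT libraries, against 56.9 and 81.3 FPKM in the KO libraries. Uhrf1, which brings the maintenance methyltransferase to replicating DNA and rises in dividing cells, read 0.772 and 0.335 FPKM in the WT libraries, against 1.66 and 4.56 FPKM in the KO libraries, given here as levels without a test. Ehmt2, a histone H3 methyltransferase gene, read 0.676 and 1.95 FPKM against 2.45 and 2.29 FPKM (0.60, SE 0.43), and Eed, a Polycomb subunit gene, 3.92 and 5.57 FPKM against 3.59 and 2.78 FPKM (-0.45, SE 0.36). Dnmt1, the maintenance methyltransferase, was between 1.49 and 2.77 FPKM.

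A list of binding partners of the imprinted proteins, together with related genes such as Zrsr2 and downstream factors such as Eif2s1, was also read. Of 11 tested, 0 had an adjusted p under 0.05 (limma). Both KO libraries lay above both WT libraries for 0 of the 11 (16.6% of all tested rows) and below for 2 (18.3%), and the median was -0.063. Irs2, an adaptor of the insulin and IGF receptors that Grb10 binds, read 46.05 and 27.6 FPKM in the WT libraries, against 35.7 and 16.4 FPKM in the KO libraries (-0.54, SE 0.46), lower in the library numbered 2 of each genotype. U2af1, a splicing factor related to Zrsr1, read 37.7 and 44.2 FPKM in the WT libraries, against 37.6 and 34.2 FPKM in the KO libraries (-0.18, SE 0.21), and its partner U2af2 differed by -0.36 (SE 0.46). Eif2s1, the translation factor subunit that Gcn2 phosphorylates, read 47.7 and 46.01 FPKM against 38.7 and 40.9 FPKM (-0.23, SE 0.19; limma, adjusted p = 0.942).

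**Figure D5:**
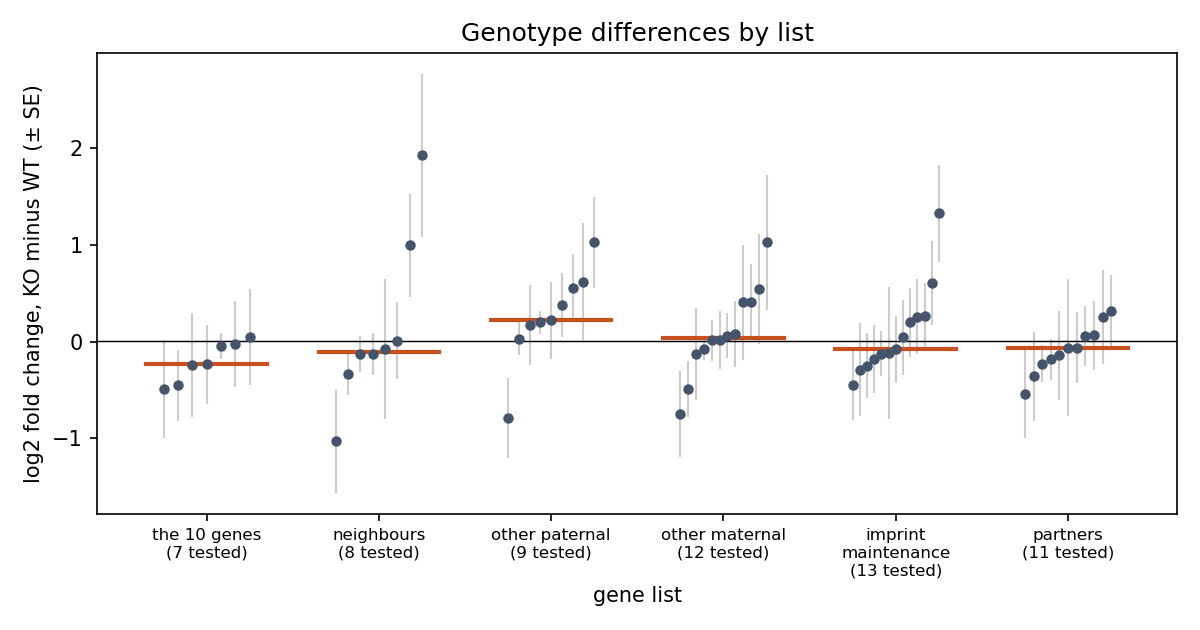
Log2 fold change of KO minus WT ± SE (y axis) for each tested gene, by list, with the median of each list as an orange bar and the median of all tested rows as a black line. The medians lie between -0.24 for the 7 tested of the 10 imprinted genes and 0.22 for other paternally expressed genes, and 0 genes passed the test. The value of -0.24 is that of Meg3, which was 0.15 without KO replicate 2.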

How the data were processed

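The authors deposited FPKM for each gene row, 1 column per library, per the file headers. TopHat and mm10 are named in the submitters' processing notes, without a version. For the program that computed FPKM, the annotation and the strand setting: not given in the sources used here. Rows with at least 1 FPKM in at least 2 of 4 libraries were tested on log2(FPKM + 1) with limma 3.58.1 in R 4.3.3 (genotype term, empirical Bayes with a mean-variance trend, Benjamini-Hochberg over all tested rows, threshold 0.05, two-sided). FPKM are not counts. The pseudocount shrinks fold changes of low genes. The fit was tested on simulated data. Reads per value were estimated from the step between low FPKM values and the longest GENCODE M21 transcript, and are approximate. Positions and microRNA sequences are from RefSeq GRCm38.p6, the same build as mm10.

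The 10 genes were taken as given, and all lists were chosen with earlier results of these data known. From each further list the 2 largest differences and the 2 most abundant tested genes were named, and of the small RNA rows the 4 most abundant. Other listed genes appear for their place beside these and were chosen after their values were seen. Alternatives changed the pseudocount, filter, scaling, trend, replicate block and libraries.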

Additional observations from a re-analysis of the deposited data

How the results depend on the processing

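In each of 12 alternatives 0 genes and 0 of the 10 imprinted genes passed limma's test, as in the fit reported. Rows with an unadjusted p under 0.05 numbered 608 there, 1123 with no filter, 366 without KO replicate 1 and 322 without KO replicate 2. With the replicate number of the labels as a replicate block they numbered 1025, with 0 past the threshold and a smallest adjusted p of 0.413 (0.77 among the 10 genes). The numbers are not stated to pair the libraries. The difference between numbers 2 and 1 in WT and that in KO had r = 0.289 across tested rows, which are not independent. Of 396 values of single genes under the alternatives, 31 turned in sign, over 18 of 34 genes, and 0 passed the test. Changes of filter, trend or replicate block leave the difference itself as it was, so their values among the 396 could not turn. Of the 7 tested imprinted genes, Zrsr1 alone kept its direction, and it entered the test through the WT libraries, in which it was higher. As both its KO values lay below both WT values, only rescaling and quantile normalization could have turned its sign. The cause of the difference was not tested. After rescaling to a common sum the differences of Peg3, Ndn and Cd81 were 0.027, 0.055 and 0.019. After quantile normalization those of Ndn, Impact, Snurf and Cd81 were 0.13, -0.034, 0.0017 and 0.019. With 1 library left out, where the lone library is assumed to vary like the others, the differences ranged from -0.69 to 0.20 for Plagl1, -0.34 to 0.29 for Peg3, -0.13 to 0.045 for Ndn, -0.35 to 0.44 for Impact, -0.62 to 0.15 for Meg3 and -1.05 to 0.073 for Rian. They ranged from -0.50 to 0.26 for Mir1906-1, -0.070 to 0.13 for Nnat, -0.17 to 0.013 for Cd81, -0.35 to 0.50 for Blcap, -0.38 to 0.13 for Trim28 and -0.72 to 0.0042 for U2af2. For Snurf the range was -0.33 to 0.068, for Snrpn -0.33 to 0.069, for Irs2 -1.08 to 0.0027, for Nr1h2 -0.60 to 0.11, for Tom1 -0.62 to 0.072 and for Ndufaf5 -0.62 to 0.15. With a pseudocount of 0.1 the difference of Rian was -1.71 and that of Zrsr1 -0.86. Neither small nor large differences passed with 2 libraries a group. Over all tested rows the differences ranged from -3.40 to 3.16, with a smallest adjusted p of 0.859 (limma). A difference that did not pass is therefore not shown to be absent.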
